A study of Oryza sativa with 4 samples.

Results

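The genes described here are the rice gene models that the deposited annotation places in 7 families of auxin response and transport. They were chosen by KEGG orthology identifier, an annotation that uses no expression value. Of 55986 gene models, 125 were selected: 3 TIR1 receptors, 39 Aux/IAA repressors, 15 ARF transcription factors, 12 GH3 enzymes, 32 SAUR genes, 5 AUX1/LAX influx carriers and 19 models annotated as PIN efflux carriers. Genes are given by locus identifier, because none of the files pairs these identifiers with gene names.

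Auxin is perceived in the nucleus, where the F-box protein TIR1 and its relatives bind the hormone together with an Aux/IAA protein. TIR1 is the substrate-binding part of an SCF ubiquitin ligase, and its Aux/IAA partner is then degraded. Aux/IAA proteins hold back the ARF factors, so their loss lets ARF proteins act on the genes they bind. Aux/IAA, GH3 and SAUR genes are the classical early auxin-induced genes, which makes many Aux/IAA genes both parts and targets of the pathway. GH3 enzymes join auxin to amino acids and so lower the free pool, and SAUR proteins are small and, in Arabidopsis, promote cell expansion. AUX1/LAX proteins carry auxin into cells, and PIN proteins placed on one face of a cell carry it out, which gives auxin flow its direction in roots and shoots.

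RNA was sequenced from whole seedlings of the mre11 T-DNA insertion mutant and of the WT cultivar Dongjin (Oryza sativa ssp. japonica), all 7 days old. The insertion lies in an intron of Mre11, which encodes a nuclease of DNA double-strand break repair, and homozygous plants are dwarf and sterile. There were 2 samples of each genotype, and each sample pooled 3 plants. The mutant was a single insertion line, so effects of this insertion and of other changes in the line cannot be told apart.

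Gene counts summed to 19004825 and 17170661 in the mre11 libraries, and to 12753324 and 16460543 in the WT libraries. The Mre11 gene itself had 132 and 118 counts in mre11 seedlings, against 306 and 471 counts in WT seedlings, so its reads were fewer and not absent. These counts cover the whole gene model and cannot show whether intact transcript remained. By semi-quantitative PCR, the paper reports that expression next to the insertion was absent in homozygous plants. The seedlings were whole, so fewer cells of a type and less RNA per cell cannot be told apart in any value below. Among marker lists, the 7 genes of dividing cells (MCM helicase subunits) summed to 93.6 and 73.3 RPKM in mre11 libraries, against 33.3 and 32.3 RPKM in WT libraries. Of the 7, 5 were called higher (71.4%, against 12.0% of all tested genes). The MCM3 models differed: LOC_Os05g39850 was called higher (log2 fold change, mre11 over WT, 1.59) and LOC_Os05g08100 was not called (-0.47). The paper reports the other direction by qRT-PCR for replication and cell cycle genes, with MCM3, MCM6 and MCM7 among those assayed. From its RNA-seq of these seedlings, however, it proposes that pathways of replication and repair were partly activated. It also reports fewer root meristem cells in mre11, and a smaller share of them labelled for DNA synthesis. The 9 green leaf genes summed to between 8951 and 14309 RPKM in mre11 libraries and between 5275 and 8681 RPKM in WT libraries, and 1 gene of the list had no count. Of the 8 tested, 1 was called higher (12.5%, against 12.0% of all tested genes). Libraries did not overlap for 50% of them, against 73.2% of all tested genes. Much of the sums came from LOC_Os01g41710 and LOC_Os09g17740, higher in mre11 but not called (log2 fold change 1.21 and 0.88). Other abundant genes overlapped, such as LOC_Os06g21590 (0.15), LOC_Os12g17600 (-0.28) and LOC_Os12g19381 (-0.07). The 9 alpha-amylase genes, of which 1 had no count, summed to 36.1 and 40.7 RPKM in mre11 libraries, against 40.7 and 38.3 RPKM in WT libraries. Of the 4 tested, 0 were called by edgeR or DESeq2 (1 at an unadjusted p under 0.05), against 21.3% of all tested genes called by edgeR. The part of these tissues in the auxin results was not tested.

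Levels are given in 2 ways. CPM (counts relative to library size) scaled by TMM, which corrects for the composition of each library, were used to compare the genotypes for a gene. The authors' RPKM, which also divides by a gene length, was used to compare genes with each other. That length was often not the one listed in the annotation, so orders of genes by RPKM rest on the authors' choice of length. A gene was called when the quasi-likelihood test of edgeR gave a Benjamini-Hochberg adjusted p under 0.05 over all tested genes and the difference was at least 2-fold, and log2 fold changes are mre11 over WT. The median of all 24470 tested genes was 0.03 with TMM, 0.11 with upper-quartile scaling and 0.19 with library size alone, so a small change has a sign only relative to these shifts.

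Of the 125 auxin genes, 101 had enough counts to be tested and 24 did not. Among the 24, 11 had no count in any library. The auxin genes moved in both directions. In mre11 seedlings 14 were called higher (13.9% of those tested, against 12.0% of all tested genes) and 10 lower (9.90%, against 9.31%), so 23.8% were called in either direction, against 21.3% of all tested genes. The libraries of the genotypes did not overlap for 71 of the 101 genes, against 73.2% of all tested genes. With no fold threshold, 37 had an adjusted p under 0.05 (36.6%, against 37.1% of all tested genes). These shares lay near the background, and the median log2 fold change was -0.04. By family, 8 of the 10 genes called lower were Aux/IAA or ARF genes, and 12 of the 14 called higher were SAUR genes or carriers. Of the tested genes, 7 had enough counts in 1 genotype only, 6 of them in mre11, and 4 of these 6 were among those called higher, so the counts of called genes are descriptions of the families and not tests of them.

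**Figure D1:**
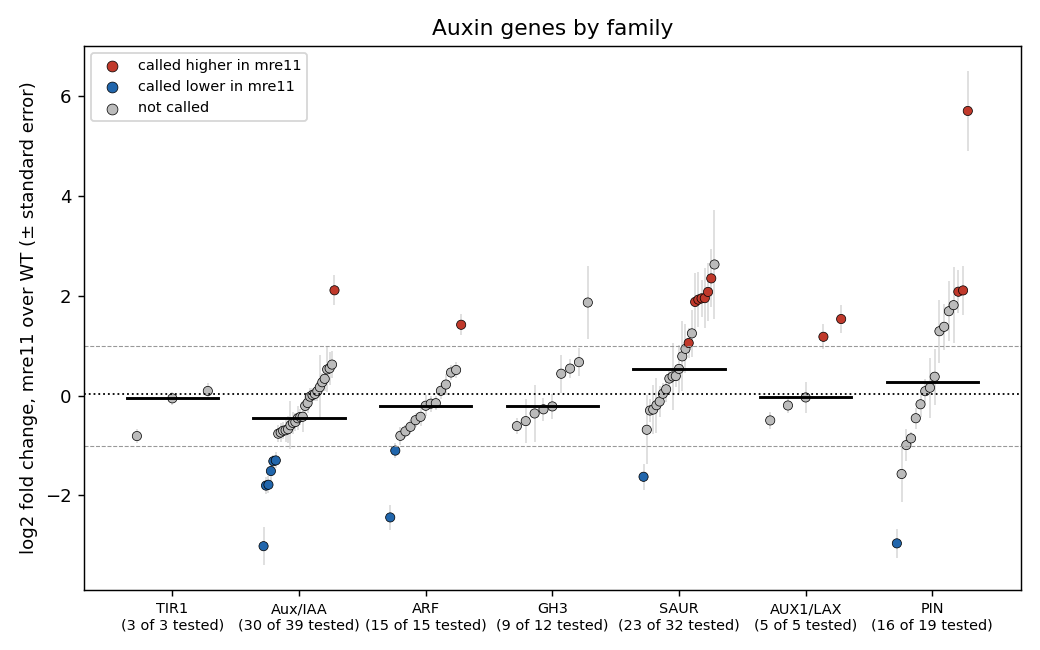
Each point is 1 tested auxin gene, placed by family on the x axis and by log2 fold change, mre11 over WT, on the y axis, with its standard error. Red and blue points were called higher and lower in mre11, the black bars are family medians, the dashed lines mark 2-fold and the dotted line is the median of all tested genes (0.03). The Aux/IAA median was -0.44 and the SAUR median 0.54.

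None (0) of the 3 TIR1 receptor genes was called by edgeR or DESeq2, against 21.3% of all tested genes called by edgeR. LOC_Os04g32460, the receptor gene with the highest RPKM in WT and the 1 receptor with an unadjusted p under 0.05, had 174 and 190 CPM in mre11 seedlings, against 322 and 316 CPM in WT seedlings. Both mre11 libraries were below both WT libraries, and the log2 fold change of -0.81 ± 0.14 (± standard error throughout; adjusted p = 0.00737) is under 2-fold and so was not called. LOC_Os02g52230 had 134 and 109 CPM in mre11 seedlings and 117 and 111 CPM in WT seedlings, with overlapping ranges (log2 fold change 0.09 ± 0.15). LOC_Os05g05800 had 84.5 and 80.2 CPM in mre11 seedlings and 84.4 and 86.7 CPM in WT seedlings (-0.05 ± 0.13). The sign of these last 2 changes with the processing. Of the summed RPKM of the family, LOC_Os04g32460 made up 28.7% and 33.4% in mre11 seedlings, against 44.4% and 44.3% in WT seedlings.

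The Aux/IAA repressor genes that were called were mostly lower in mre11 seedlings. Of the 39 Aux/IAA models 30 were tested, and 6 were called lower and 1 higher. In either direction 23.3% were called, against 21.3% of all tested genes, and 20% were called lower, against 9.31%. Of the tested genes 20 were below 0, and the median log2 fold change was -0.44. The Aux/IAA median ran from -0.60 (without mre11 replicate 2) to -0.28 (library size alone) over the alternatives. Summed over the family, Aux/IAA transcript was 771 and 822 RPKM in mre11 seedlings, against 1059 and 1094 RPKM in WT seedlings. In TMM-scaled CPM the sums were 1328 and 1480 in mre11 seedlings and 2207 and 2247 in WT seedlings, a log2 ratio of -0.67.

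LOC_Os02g57250 accounted for part of that difference. By RPKM it was the second most abundant Aux/IAA gene in WT seedlings and the fifth in mre11 seedlings, with 49.6 and 57.3 RPKM in mre11 seedlings, against 177 and 153 RPKM in WT seedlings. In TMM-scaled CPM it had 72.8 and 89.5 in mre11 and 303 and 256 in WT, a 3.45-fold lower level (log2 fold change -1.78 ± 0.17, adjusted p = 0.00152). Its share of the summed Aux/IAA RPKM was 6.43% and 6.97% in mre11 libraries, against 16.7% and 14.0% in WT libraries. The most abundant Aux/IAA gene, LOC_Os05g14180, had 149 and 135 RPKM in mre11 seedlings, against 181 and 231 RPKM in WT seedlings. Its libraries did not overlap either, but the log2 fold change of -0.70 ± 0.17 (adjusted p = 0.0217) was under 2-fold. LOC_Os06g22870 is named after its values were seen, for its log2 fold change of 0.01 ± 0.13: it made up 14.8% and 13.5% of the family in mre11 libraries, against 9.23% and 9.28% in WT libraries.

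The steepest Aux/IAA fall was that of LOC_Os02g56120, a gene of low level. It had 1.16 and 1.14 CPM in mre11 seedlings (24 and 20 counts), against 11.7 and 7.06 CPM in WT seedlings (139 and 111 counts). The groups were far apart, with an 8.08-fold lower level in mre11 (log2 fold change -3.02 ± 0.38, adjusted p = 0.00279). LOC_Os01g53880 had 49.2 and 61.7 CPM in mre11 seedlings, against 205 and 182 CPM in WT seedlings (-1.80 ± 0.17, adjusted p = 0.00147). LOC_Os05g09480 had 7.24 and 9.83 CPM in mre11 seedlings, against 25.1 and 23.5 CPM in WT seedlings (-1.51 ± 0.22, adjusted p = 0.00401). In both genes the mre11 libraries lay close together and well below WT. LOC_Os07g08460 had 51.0 and 53.3 CPM in mre11 seedlings, against 126 and 133 CPM in WT seedlings (-1.31 ± 0.13, adjusted p = 0.00161). The sixth gene, LOC_Os01g08320, fell outside the naming rule and is named after its values were seen. It had 32.2 and 39.9 CPM in mre11 seedlings, against 93.8 and 83.3 CPM in WT seedlings (-1.30 ± 0.16, adjusted p = 0.00271). In all 6, both mre11 libraries lay below both WT libraries. Libraries did not overlap, in either direction, for 73.2% of all tested genes.

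One Aux/IAA gene went the other way. LOC_Os02g13520 had 22.9 and 14.0 CPM in mre11 seedlings (474 and 247 counts), against 3.95 and 4.58 CPM in WT seedlings (47 and 72 counts). The mre11 libraries were unequal and both were above WT, with a 4.32-fold higher level (log2 fold change 2.11 ± 0.30, adjusted p = 0.00405). All 7 Aux/IAA calls held in each of the 18 alternative settings, including the omission of any single library. The 15 more abundant and the 15 less abundant of the tested Aux/IAA genes, by mean RPKM over the 4 libraries, had similar medians, -0.43 and -0.45.

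ARF proteins bind the promoters of auxin-regulated genes and act as activators or repressors depending on the member. All 15 ARF genes were tested, and 2 were called lower and 1 higher (20%, against 21.3% of all tested genes). Their median was -0.20 on the log2 scale, and it came close to 0 in some settings: -0.08 without WT replicate 2, -0.04 with library size alone and -0.02 with the length trend removed, against -0.37 without WT replicate 1. A further 6 had an adjusted p under 0.05 without reaching 2-fold, 2 above 0 and 4 below. In all, 9 of the 15 had an adjusted p under 0.05 (60.0%, against 37.1% of all tested genes). Summed ARF transcript was 814 and 901 CPM in mre11 seedlings, against 1254 and 1314 CPM in WT seedlings. The 7 more abundant ARF genes by mean RPKM were all below 0 (median -0.62), while 5 of the 8 less abundant were above 0 (median 0.16).

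LOC_Os02g04810 showed the widest ARF difference, with 17.5 and 27.9 CPM in mre11 seedlings, against 111 and 135 CPM in WT seedlings. The level was 5.42-fold lower in mre11 (log2 fold change -2.44 ± 0.25, adjusted p = 0.00164), with no overlap. LOC_Os02g35140, which had the highest mean RPKM of the ARF genes over the 4 libraries, had 96.1 and 114 CPM in mre11 seedlings, against 228 and 223 CPM in WT seedlings. It stood just past the fold threshold (-1.10 ± 0.15, adjusted p = 0.00331), and without mre11 replicate 1 it was -0.98 (adjusted p = 0.00654), no longer 2-fold, as with library size alone (-0.94, adjusted p = 0.00352). LOC_Os01g70270, the next by that mean, had 171 and 181 CPM in mre11 seedlings, against 289 and 289 CPM in WT seedlings (-0.72 ± 0.14, adjusted p = 0.00983), under 2-fold. LOC_Os04g56850 was the ARF gene called higher, with 17.5 and 15.0 CPM in mre11 seedlings, against 5.96 and 6.17 CPM in WT seedlings (1.42 ± 0.21, adjusted p = 0.00468). By RPKM it was the least abundant of the 15, at 4.06 and 3.28 in mre11 and 1.19 and 1.26 in WT.

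The auxin-conjugating GH3 family gave 0 calls in either direction among its 9 tested genes, against 21.3% of all tested genes called by edgeR. DESeq2 also called 0, and 3 had an unadjusted p under 0.05. With so few genes, 0 calls does not show that the family was unchanged. LOC_Os08g43040 held 57.2% and 55.2% of the summed GH3 RPKM in mre11 libraries, against 40.4% and 51.4% in WT libraries, with 23.7 and 25.1 RPKM in mre11 seedlings, against 12.4 and 17.5 RPKM in WT seedlings. In TMM-scaled CPM it had 55.6 and 62.5 in mre11 and 34.1 and 46.9 in WT, which did not overlap but did not pass the test (log2 fold change 0.54 ± 0.19, adjusted p = 0.0607). LOC_Os07g40290 had 11.4 and 7.73 CPM in mre11 seedlings, against 6.38 and 5.66 CPM in WT seedlings (0.67 ± 0.28, adjusted p = 0.108). The GH3 gene with an adjusted p under 0.05, LOC_Os07g47490, was lower and under 2-fold, and is named after its values were seen. It had 19.7 and 19.5 CPM in mre11 seedlings, against 31.6 and 28.3 CPM in WT seedlings (-0.61 ± 0.16, adjusted p = 0.0263). The family median of -0.22 turned positive under DESeq2, without a filter and without mre11 replicate 1.

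The SAUR genes that were called were mostly higher in mre11 seedlings, and mostly at low levels. Of 32 models 23 were tested, and 7 were called higher and 1 lower. That is 30.4% higher, against 12.0% of all tested genes, and 4.35% lower, against 9.31%. Of the 7 called higher, 3 had enough counts to be tested in mre11 only, so their calls are descriptions. Of the 23 tested, the log2 fold change was above 0 in 17 and had a median of 0.54. That median was 0.82 without mre11 replicate 1, 0.85 without WT replicate 1, 0.87 without a filter, 0.83 with DESeq2 and 0.35 with the length trend removed. DESeq2 called 2 of the 7. The 32 SAUR models are also the shortest of the 7 families by median, with a median listed gene length of 779 bp. Summed SAUR transcript was 162 and 156 CPM in mre11 seedlings, against 147 and 131 CPM in WT seedlings.

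The 2 SAUR genes with the highest mean RPKM over the 4 libraries were not called. LOC_Os06g50040 had 31.6 and 24.8 CPM in mre11 seedlings, against 22.6 and 22.0 CPM in WT seedlings (log2 fold change 0.34 ± 0.18, adjusted p = 0.179). LOC_Os02g52990 had 22.7 and 17.6 CPM in mre11 seedlings and 29.4 and 20.2 CPM in WT seedlings, with overlap (-0.30 ± 0.24, adjusted p = 0.360). The firmest SAUR call was a fall: LOC_Os04g52670 had 4.35 and 5.34 CPM in mre11 seedlings, against 17.1 and 12.8 CPM in WT seedlings, 3.09-fold lower (-1.63 ± 0.26, adjusted p = 0.00558). It held in all 18 settings.

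Among the SAUR genes called higher, LOC_Os04g56680 had 5.99 and 6.65 CPM in mre11 seedlings, against 2.10 and 1.21 CPM in WT seedlings. The groups did not overlap (log2 fold change 1.95 ± 0.38, adjusted p = 0.0101), but without WT replicate 2 the value was 1.58 (adjusted p = 0.0581). Its neighbour on chromosome 4, LOC_Os04g56690, also a SAUR gene and named for its position, had a log2 fold change of -0.28. LOC_Os06g45950 had 4.926 and 5.0005 CPM in mre11 seedlings, against 2.35 and 2.42 CPM in WT seedlings (1.05 ± 0.31, adjusted p = 0.0383). The replicates were close, yet the call was lost whichever single library was left out, with adjusted p between 0.104 and 0.125. The other 5 (LOC_Os02g24740, LOC_Os04g51890, LOC_Os06g04590, LOC_Os12g38230 and LOC_Os12g43110) were below the level set for naming and are named here because they make up most of the count. They had 17 to 74 counts in mre11 libraries and 3 to 10 counts in WT libraries, and log2 fold changes between 1.88 and 2.35. LOC_Os02g24740, LOC_Os12g38230 and LOC_Os12g43110 had enough counts to be tested in mre11 only. Of these 5, 4 lost the call whichever single library was left out, and LOC_Os06g04590 lost it without mre11 replicate 2, WT replicate 1 or WT replicate 2 (adjusted p of 0.145, 0.0922 and 0.128).

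**Figure D2:**
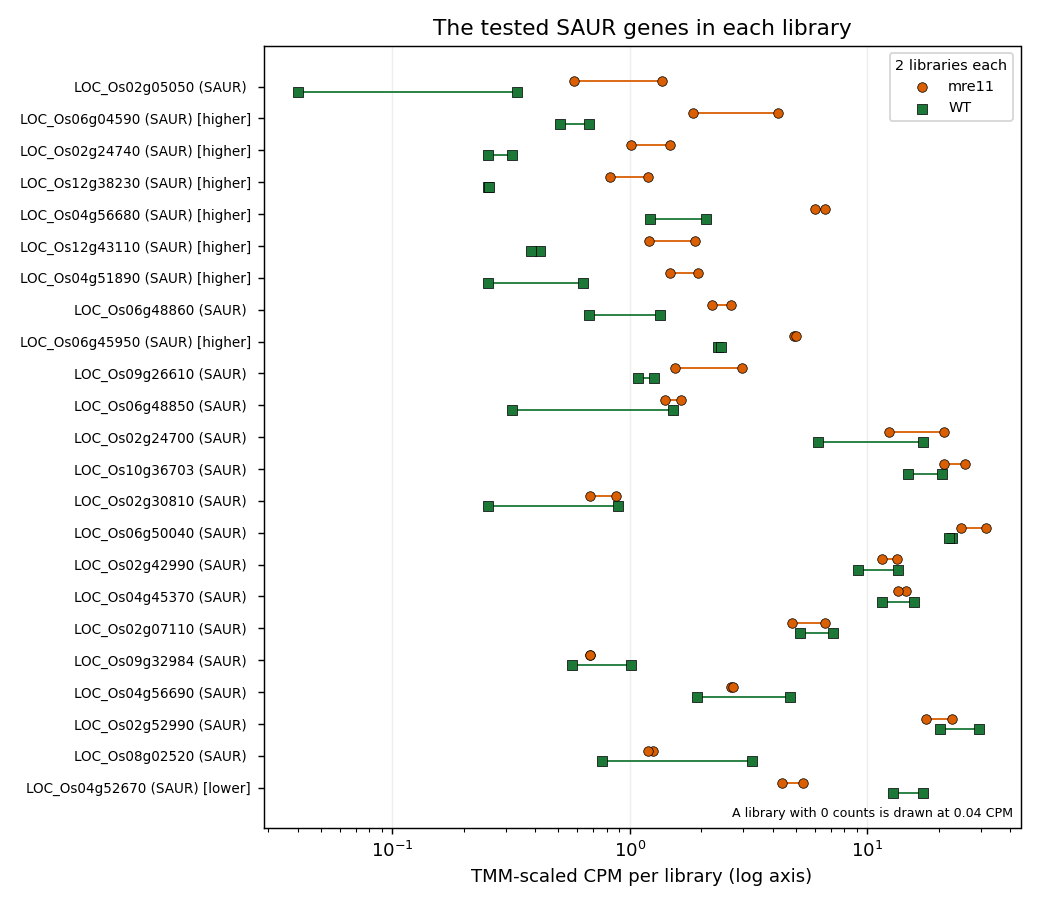
TMM-scaled CPM (log axis) of the 23 tested SAUR genes, ordered by log2 fold change, with mre11 libraries as orange circles drawn above the WT libraries as green squares. Genes called higher lie toward the low end of the axis, such as LOC_Os06g45950 at 4.926 and 5.0005 CPM in mre11, against 2.35 and 2.42 CPM in WT.

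All 5 AUX1/LAX influx carrier genes were tested, and 2 were called higher (40%, against 12.0% of all tested genes). LOC_Os03g14080 had 9.08 and 10.9 CPM in mre11 seedlings, against 3.86 and 3.05 CPM in WT seedlings (log2 fold change 1.53 ± 0.28, adjusted p = 0.00826). LOC_Os10g05690 had 11.3 and 13.5 CPM in mre11 seedlings, against 6.13 and 4.84 CPM in WT seedlings (1.18 ± 0.25, adjusted p = 0.0137). Neither gene overlapped between genotypes, and both calls were lost without WT replicate 2 (1.36 with adjusted p = 0.0594, and 1.00 with adjusted p = 0.0845). These are also the 2 AUX1/LAX genes that the deposited annotation gives the GO term response to nematode, while all 5 carry root cap development.

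The 2 most abundant influx carriers were not called. LOC_Os01g63770 had 58.2 and 68.1 CPM in mre11 seedlings, against 78.9 and 99.3 CPM in WT seedlings (log2 fold change -0.50 ± 0.17, adjusted p = 0.0579). It made up 41.7% and 41.5% of the summed AUX1/LAX RPKM in mre11 libraries, against 50.1% and 58.3% in WT libraries. LOC_Os05g37470 had 38.3 and 37.8 CPM in mre11 seedlings, against 47.29 and 40.03 CPM in WT seedlings (-0.20 ± 0.15, adjusted p = 0.329). LOC_Os11g06820 had 6.95 and 11.7 CPM in mre11 seedlings and 8.82 and 10.2 CPM in WT seedlings, with the WT values inside the mre11 range (-0.04 ± 0.30). Summed over the family, AUX1/LAX transcript was 124 and 142 CPM in mre11 seedlings, against 145 and 157 CPM in WT seedlings, with no overlap. In RPKM, which has no TMM scaling, the sums overlapped, at 49.6 and 54.7 in mre11 and 47.8 and 52.9 in WT.

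The 19 models annotated as PIN were mixed in annotation and in response. Of these 16 were tested, and 3 were called higher and 1 lower (25%, against 21.3% of all tested genes). The median log2 fold change was 0.27. It became -0.10 without WT replicate 2, 0.10 without mre11 replicate 2, 0.66 without WT replicate 1 and 0.63 without mre11 replicate 1. With a filter of 1 CPM in 2 libraries it was 0.84, and without a filter it was 0.17. Only 4 of the 19 carry the GO terms for auxin efflux transport, positive gravitropism and the basal plasma membrane, which are the textbook properties of the polar carriers. The 3 genes called higher were all among these 4, a grouping made after their values were seen. Of the 3, LOC_Os05g50140 had enough counts to be tested in mre11 only.

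LOC_Os05g50140 was nearly absent from WT seedlings, with 43 and 43 counts in mre11 libraries, against 0 and 1 count in WT libraries. It had enough counts to be tested in mre11 only, so its call is a description. The ratio of its scaled sums was 62.0 with a 95% interval of 10.8 to 2477, which covers counting error only, and the adjusted p was 0.00389. Its level stayed low, at 0.88 and 0.98 RPKM in mre11 seedlings, and on the log2 RPKM plus 1 scale the difference was 0.93, under 2-fold. LOC_Os11g04190 had 4.35 and 4.09 CPM in mre11 seedlings, against 0.672 and 1.27 CPM in WT seedlings (log2 fold change 2.08 ± 0.43, adjusted p = 0.0124). LOC_Os12g04000 had 2.75 and 3.69 CPM in mre11 seedlings, against 1.01 and 0.509 CPM in WT seedlings (2.11 ± 0.49, adjusted p = 0.0182). The libraries of these 3 genes did not overlap between genotypes, as for 73.2% of all tested genes. The call of LOC_Os11g04190 was lost without WT replicate 1 (1.71, adjusted p = 0.0610), and that of LOC_Os12g04000 without mre11 replicate 2 (1.87, adjusted p = 0.0802) or WT replicate 2 (1.66, adjusted p = 0.0964). The fourth gene with these terms, LOC_Os01g45550, had 12.99 and 16.37 CPM in mre11 seedlings and 16.1 and 11.5 CPM in WT seedlings, with overlap (0.09 ± 0.24, adjusted p = 0.793). It had the highest RPKM of the 4 in every library.

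The PIN model called lower was LOC_Os08g41720. It had 1.30 and 1.42 CPM in mre11 seedlings (27 and 25 counts), against 11.1 and 10.2 CPM in WT seedlings (132 and 160 counts), 7.77-fold lower (log2 fold change -2.96 ± 0.29, adjusted p = 0.00154). The replicates were tight in both genotypes, and the call held in all 18 settings. The most abundant PIN model, LOC_Os02g50960, had 56.8 and 65.0 CPM in mre11 seedlings, against 110 and 111 CPM in WT seedlings (-0.86 ± 0.14, adjusted p = 0.00558), under 2-fold. LOC_Os05g10625 was close to the fold threshold on the same side, with 2.90 and 4.38 CPM in mre11 seedlings, against 7.56 and 6.87 CPM in WT seedlings (-0.99 ± 0.32, adjusted p = 0.0495), and it was called lower with RLE scaling (-1.0035, adjusted p = 0.0477), with the length trend removed (-1.19) and without mre11 replicate 2 (-1.32, adjusted p = 0.0361). Summed PIN transcript was 136 and 148 CPM in mre11 seedlings, against 200.4 and 192 CPM in WT seedlings, although more tested models were above 0 (10) than below (6).

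The remaining PIN models were not called in the main test. LOC_Os09g32770 had 3.62 and 3.69 CPM in mre11 seedlings, against 0.840 and 1.91 CPM in WT seedlings (log2 fold change 1.38 ± 0.46, adjusted p = 0.0566), and it was called higher with library size alone (1.54, adjusted p = 0.0394), without a filter and on both RPKM scales. LOC_Os01g69070 had 5.41 and 1.82 CPM in mre11 seedlings, against 1.09 and 1.15 CPM in WT seedlings (1.69 ± 0.60, adjusted p = 0.0660), with unequal mre11 libraries, and it was called without mre11 replicate 2 (2.26, adjusted p = 0.0137), with library size alone and without a filter. LOC_Os06g44970 had 4.06 and 3.86 CPM in mre11 seedlings, against 2.10 and 0.255 CPM in WT seedlings (1.81 ± 0.76, adjusted p = 0.106), and it was called without WT replicate 1 (3.91, adjusted p = 0.0251) and without a filter. LOC_Os06g12610 (-0.45), LOC_Os05g36920 (-0.17), LOC_Os01g01580 (0.38), LOC_Os01g51780 (0.16), LOC_Os01g58860 (1.29) and LOC_Os12g40774 (-1.57) had adjusted p between 0.0697 and 0.853. LOC_Os01g01590 had 1 to 3 counts per library, and LOC_Os11g02950 and LOC_Os12g33060 had none, so these 3 were not tested.

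**Figure D3:**
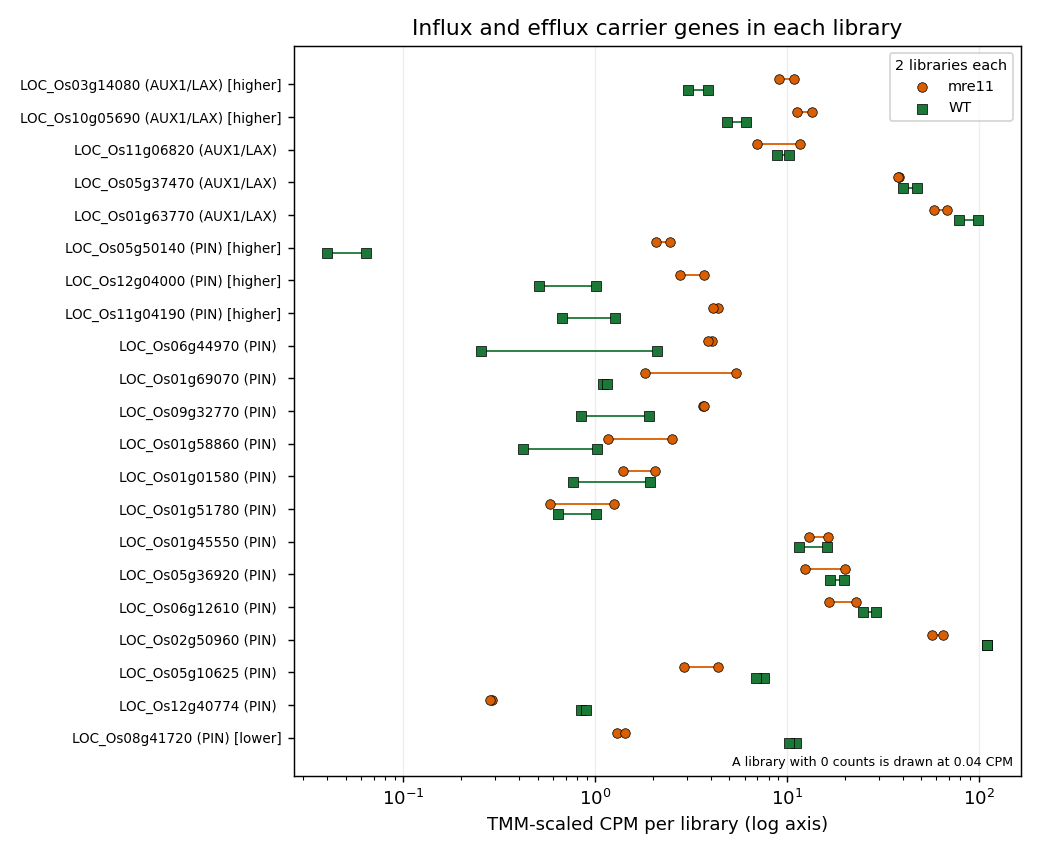
TMM-scaled CPM (log axis) of the 5 AUX1/LAX and 16 tested PIN genes, with mre11 libraries as orange circles drawn above the WT libraries as green squares. Marked as higher are 3 PIN genes and 2 AUX1/LAX genes, and LOC_Os08g41720 is marked lower at 1.30 and 1.42 CPM in mre11, against 11.1 and 10.2 CPM in WT.

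Higher values in mre11 lay mostly among auxin genes of low level. Over the 101 tested auxin genes, log2 fold change and mean log2 CPM had a Pearson r of -0.50 and a Spearman rho of -0.52, against an r of -0.17 over all 24470 tested genes. Both measures come from the same 4 libraries and genes are not independent, so these are descriptions. The 6 genes that had enough counts in mre11 only lie at low level and high fold, a corner that the filter on low counts itself favours. Over the 94 genes with enough counts in both genotypes, a choice made after seeing the data, r was -0.45 and rho -0.49. Within families r was -0.26 for the 30 Aux/IAA genes, -0.56 for the 15 ARF genes, -0.52 for the 23 SAUR genes and -0.37 for the 16 PIN models.

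**Figure D4:**
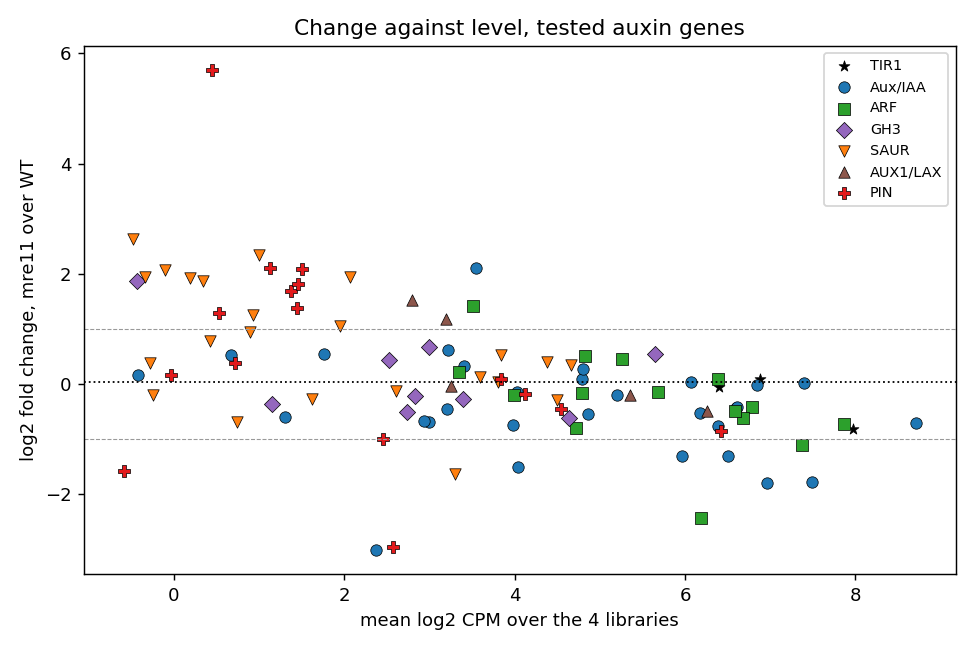
Log2 fold change, mre11 over WT (y axis), against mean log2 CPM over the 4 libraries (x axis) for the 101 tested auxin genes, with a symbol for each family. Dashed lines mark 2-fold and the dotted line is the median of all tested genes. High points gather at the left, where SAUR and PIN genes lie, and r was -0.50.

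The TAA1, YUCCA and IAA-amino acid hydrolase lists, genes that make auxin or release it from conjugates, held no edgeR call. Outside these lists LOC_Os03g57680, annotated as an indole-3-acetaldehyde oxidase, was called lower. It is described below, with a more abundant gene of the same KEGG identifier that was not called. None (0) of the 3 tested TAA1 genes and 0 of the 6 tested YUCCA genes, which together convert tryptophan to auxin, was called, nor was any (0) of the 7 tested genes for IAA-amino acid hydrolases. Of all tested genes 21.3% were called, and these lists are too short for 0 calls to show that they were unchanged. At an unadjusted p under 0.05 the counts were 1 TAA1, 2 YUCCA and 3 hydrolase genes, and DESeq2 called 1 hydrolase gene higher. In the SCF ubiquitin ligase that TIR1 joins, 3 of the 7 tested SKP1 genes, 1 of the 5 CUL1 genes and 0 of the 2 RBX1 genes were called, all 4 higher, by edgeR and by DESeq2 (0 RBX1 genes at an unadjusted p under 0.05). That is 42.9% of the SKP1 and 20% of the CUL1 genes tested, against 12.0% called higher among all tested genes. The 3 SKP1 genes have consecutive identifiers on chromosome 7. LOC_Os07g43240 had 93 and 89 counts in mre11 libraries, against 15 and 29 counts in WT libraries (log2 fold change 1.601 ± 0.36, adjusted p = 0.0170). LOC_Os07g43250 had 42 and 51 counts in mre11 libraries, against 1 and 1 count in WT libraries, and LOC_Os07g43260 had 95 and 106 counts in mre11 libraries, against 1 and 10 counts in WT libraries. The CUL1 gene LOC_Os01g27160 had 39 and 36 counts in mre11 libraries, against 2 and 1 counts in WT libraries. LOC_Os07g43250 and LOC_Os01g27160 had enough counts to be tested in mre11 only, so their calls are descriptions. The ratio of scaled sums was 33.5 for LOC_Os07g43250 (95% counting interval 9.03 to 281) and 18.0 for LOC_Os01g27160 (5.94 to 89.4). The 2 abundant CUL1 genes, named after their values were seen, lay on the other side without reaching 2-fold. LOC_Os05g05700 had 202 and 184 CPM in mre11 seedlings, against 335 and 318 CPM in WT seedlings (-0.76 ± 0.14, adjusted p = 0.00953), and LOC_Os01g27150 had 167 and 136 CPM in mre11 seedlings, against 222 and 240.5 CPM in WT seedlings (-0.61 ± 0.16, adjusted p = 0.0258). Summed CUL1 transcript was 375 and 327 CPM in mre11 seedlings, against 559 and 562 CPM in WT seedlings. The most abundant SKP1 gene, LOC_Os11g26910, is also named after its values were seen. It had 229 and 285 CPM in mre11 seedlings, against 162 and 134 CPM in WT seedlings (0.80 ± 0.18, adjusted p = 0.016), under 2-fold. Summed SKP1 transcript was 282 and 339 CPM in mre11 seedlings, against 206 and 175 CPM in WT seedlings. Reads shared between near-identical neighbours could not be separated here. SKP1 and cullin proteins also serve many ligases that have no part in auxin perception.

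Outside the 7 families 108 genes carry an auxin GO term, 8 of which are also in the lists just described, and 9 of the 96 tested were called higher and 4 lower (13.5%, against 21.3% of all tested genes). LOC_Os06g48200, annotated with xyloglucan transferase activity, a function of cell wall remodelling, had 84.1 and 88.6 CPM in mre11 seedlings, against 446 and 487 CPM in WT seedlings (log2 fold change -2.43 ± 0.15, adjusted p = 8.56e-04). LOC_Os03g57680, annotated as an indole-3-acetaldehyde oxidase, had 3.86 and 2.90 CPM in mre11 seedlings, against 17.6 and 14.5 CPM in WT seedlings (-2.24 ± 0.26, adjusted p = 0.00232). LOC_Os03g57690 has the same KEGG identifier and a higher level, and is named after its values were seen. It had 115 and 113 CPM in mre11 seedlings, against 151 and 174 CPM in WT seedlings (-0.51 ± 0.14, adjusted p = 0.0314), under 2-fold. LOC_Os02g37000 had 11.9 and 15.5 CPM in mre11 seedlings, against 3.36 and 2.55 CPM in WT seedlings (2.22 ± 0.28, adjusted p = 0.00297). In the 3 called genes named here, too, the libraries of the genotypes did not overlap, as for 73.2% of all tested genes.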

How the data were processed

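RNA-seq of WT and mre11 seedlings (4 libraries, 3 plants each, 2 per genotype) was analysed. The authors mapped reads to the rice pseudomolecules version 7.0 and counted them per gene with HTSeq 0.6.1. The deposited counts are whole reads per gene model without normalization. Deposited RPKM values were scaled by the authors for library total and for a gene length that, over the 66 auxin genes with at least 50 counts in every library, was shorter than the listed one in 46, within 2% of it in 10 and longer in 10. The aligner and strand setting are not given in the sources used here, so overlapping, antisense and near-identical genes are uncertain. The columns of the authors' own comparison (fold changes and p-values) were not used.

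The test used edgeR 4.0.16 in R 4.3.3 after filterByExpr and TMM, with glmQLFit and glmQLFTest, and limma 3.58.1 and DESeq2 1.42.0 served as alternatives. The test was checked on simulated data. The common dispersion was 0.0384. A permutation of 2 against 2 samples cannot give p below 0.33, so p-values rest on spread shared across genes. No source says whether the samples were grown separately, and p measures only the spread between them.

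The members, gene lists and tests were chosen with earlier results of these data known. Named genes were, per family, up to 5 called rises and 5 called falls with mean log2 CPM of at least 1, the 2 highest by RPKM, every TIR1, AUX1/LAX and PIN model, genes with 3 counts or fewer in each library of 1 genotype and at least 30 in each of the other, and up to 3 called genes per further list. Alternatives were other scalings, filters, thresholds and tools, RPKM fits, a length correction, thinning, a replicate block and leaving out each library. None (0) of the identifiers matched the RefSeq table, so no sequence is shown.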

Additional observations from a re-analysis of the deposited data

How the results depend on the processing

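The 10 genes called lower stayed at 9 to 11 under the other scalings, filters, tools and stricter p, and at 9 to 13 without single libraries, and became 21 with no fold threshold. The 14 called higher were less stable: 9 with DESeq2, 4 at adjusted p under 0.01, 9 without mre11 replicate 1, 8 without mre11 replicate 2, 8 without WT replicate 1 and 4 without WT replicate 2. Over all genes the higher calls, 2930 with every library, were 2626, 2423, 1782 and 1668 in those last 4 settings. The split of called auxin genes was 14 higher and 10 lower with TMM, 16 and 9 with library size alone, and 17 and 9 on log2 RPKM plus 0.1. The cause of these shifts was not tested.

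Replicate numbers pair nothing in the labels, and deviations from the group means of same-numbered libraries correlated at r = -0.0035 over 24470 genes. A fit with the replicate block called 9 higher and 10 lower.

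The median log2 fold change of -0.04 was 0.0503 with upper-quartile scaling, 0.12 with library size alone, -0.11 with a filter of 1 CPM in 2 libraries, 0.11 on log2 RPKM plus 1 and 0.11 on log2 RPKM plus 0.1. Without single libraries it ran between -0.10 and -6e-04. Of the named genes' values under all alternatives, 576 kept direction and side of the threshold, 21 fell below it, 12 passed it and 19 changed sign, all 19 in genes that were not called. LOC_Os05g05800 became 0.0298 with upper-quartile scaling, 0.11 with library size alone, 0.11 on both RPKM scales, and 0.13 with the length trend removed. LOC_Os11g06820 became 0.0503 with upper-quartile scaling, 0.12 with library size alone, 0.0787 on log2 RPKM plus 1, 0.0869 on log2 RPKM plus 0.1 and 0.0617 after thinning. Without single libraries the range was -0.46 to 0.30 for LOC_Os11g06820, -0.0539 to 0.23 for LOC_Os02g52230, -0.55 to 0.12 for LOC_Os05g36920, -0.18 to 1.15 for LOC_Os01g01580, -0.14 to 0.34 for LOC_Os01g45550 and -0.49 to 0.63 for LOC_Os01g51780. Thinning every library to the smallest kept 12 of the 14 higher and 10 of the 10 lower calls.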
